A study of Chlamydomonas reinhardtii with 31 samples.

Results

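In the green alga Chlamydomonas reinhardtii, a small group of genes was close to undetected at the start of nitrogen starvation and clearly expressed in both strains from 2 to 48 h later. It held 37 of the 17301 genes in the deposited table (0.214%). The members were selected on measured values: under 1 FPKM at 0 h in both CC-4349 and sta6, and at least 10 FPKM at each of 2, 4, 8, 12, 24 and 48 h in both strains, in the first of 2 sets of libraries. FPKM counts reads per length of the gene and per amount of sequencing. Since these values chose the genes, their rise from 0 h and their levels from 2 to 48 h in the first set are a description and carry no test. The second set of libraries was not used to choose them.

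RNA was sequenced from cultures of Chlamydomonas grown in the light in an acetate medium, washed in the same medium lacking ammonium chloride and sampled over time. In the first set, wild type CC-4349 and the starchless mutant sta6 (CC-4348) were sampled at 0, 0.5, 2, 4, 8, 12, 24 and 48 h, which gave 16 samples. In the second set, these 2 strains and 3 strains labelled STA6 (STA6-C2, STA6-C4 and STA6-C6) were sampled at 0.5, 4 and 48 h, which gave 15. Each strain and time of a set is 1 sample. All 31 samples, the 0 h ones included, carry the treatment label minus nitrogen, and the sources used here do not say whether 0 h cells were taken before or after the wash, nor how the STA6 strains were made.

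Chlamydomonas prefers ammonium to other nitrogen sources, and genes for the uptake and use of nitrate, urea, amino acids and other forms of nitrogen are known to be repressed by it. When nitrogen runs out, cells stop dividing, recycle their own nitrogen, store carbon as starch and oil and become able to mate. Neither the deposited table nor the reference annotation gives a gene name for the members, so each is called by its identifier and no role is given to it.

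Read totals per sample are not given, so the depth behind each value is unknown. Each first-set sample had 2 deposited columns, treated as repeat runs and averaged. Across the members and the 6 times from 2 to 48 h, the median ratio between the runs of a sample was 1.12 in CC-4349 and 1.17 in sta6, and 6 and 7 of 222 run pairs differed by more than 2-fold. At 0.5, 4 and 48 h the first-set CC-4349 columns stood apart from those of first-set sta6 and second-set CC-4349 in their lowest values. Among genes at 0.3 FPKM or less, where single reads are visible, ratios of whole numbers, within 0.004 (log2), were found for 64.2% to 70.3% of genes between the sets in sta6 and for 59.3% to 66.8% between the strains in the second set. Between first-set CC-4349 and either first-set sta6 or second-set CC-4349 the share was 5.34% to 15.5%. The part of this in the members' differences between strains or sets was not tested.

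Levels before and after the removal of nitrogen were far apart by construction. At 0 h the members lay between 0 and 0.761 FPKM in CC-4349, with a median of 0.293, and between 0.0346 and 0.876 FPKM in sta6, with a median of 0.196. Of the 148 single-run values at 0 h, 145 were under 1 FPKM and 20 were listed at 0. Together the members made up 0.00191% of all FPKM in CC-4349 and 0.00146% in sta6 at 0 h. Their share was 0.520% in CC-4349 at 2 h and 0.421% in sta6 at 4 h, the highest share in each first-set time course. At 48 h it was 0.349% in CC-4349 and 0.222% in sta6.

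**Figure D1:**
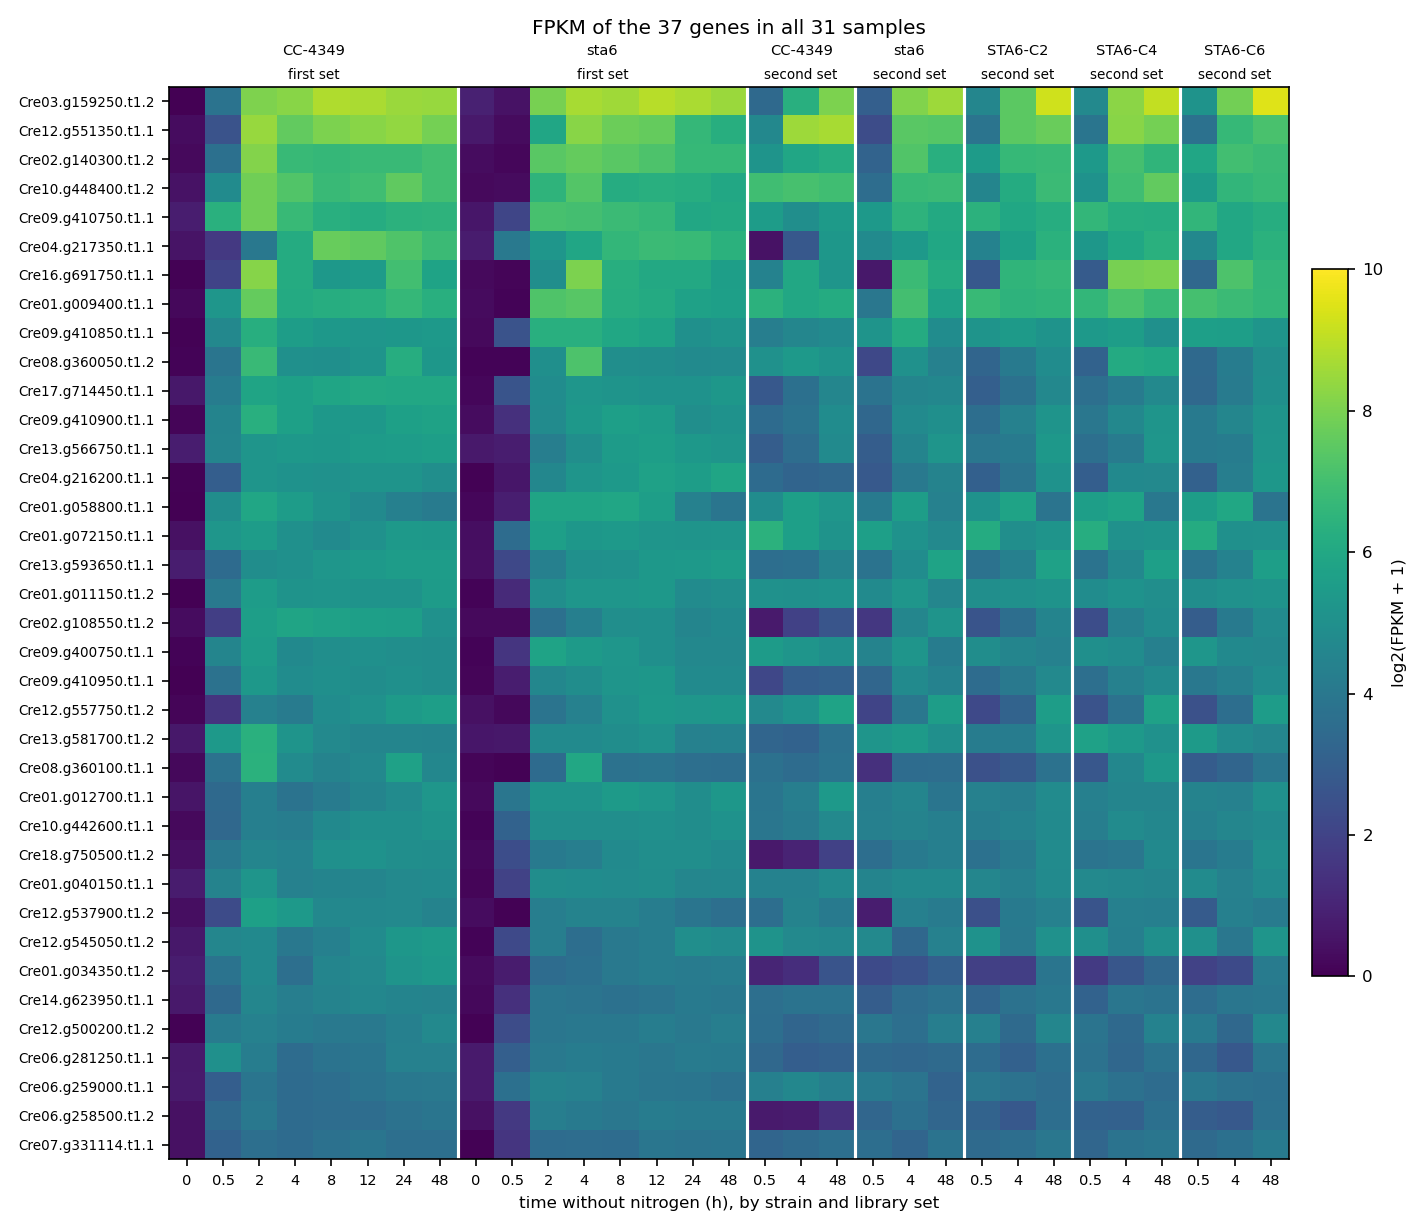
Level of each of the 37 genes (rows, ordered by mean first-set level from 2 to 48 h) in each of the 31 samples (columns, by strain, set and hours without nitrogen), as log2(FPKM + 1) in colour. The 0 h columns are dark in every row, first-set sta6 at 0.5 h is dark in most rows while first-set CC-4349 at 0.5 h is not, and second-set CC-4349 is darker than the other second-set strains in several rows.

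The mean level from 2 to 48 h over both strains spanned 12.0 to 371 FPKM, with 6 members at 100 or more and 14 under 30. The highest was Cre03.g159250.t1.2. In CC-4349 it was listed at 0 before starvation and measured 13.0, 267, 299, 451, 423, 360 and 351 FPKM at 0.5, 2, 4, 8, 12, 24 and 48 h. In sta6 it measured 0.876 FPKM at 0 h and then 0.384, 246, 412, 378, 482, 420 and 363 FPKM. Its runs differed widely at some times. They were at 62.8 and 535 FPKM at 4 h and at 588 and 313 FPKM at 8 h in CC-4349, and at 590 and 251 FPKM at 24 h in sta6. Cre12.g551350.t1.1 was next, at a mean of 218 FPKM, followed by Cre02.g140300.t1.2 at 144, Cre10.g448400.t1.2 at 122, Cre09.g410750.t1.1 at 105 and Cre04.g217350.t1.1 at 102. Cre16.g691750.t1.1 and Cre01.g009400.t1.1 lay just below, at 96.9 and 96.6 FPKM.

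At the lower edge of the list, Cre08.g360100.t1.1 had its lowest value from 2 h at 10.3 FPKM, Cre07.g331114.t1.1 at 10.3 and Cre06.g258500.t1.2 at 10.4. Cre05.g244300.t1.2, Cre10.g460200.t1.1 and Cre13.g593900.t1.1, at 9.92, 9.92 and 9.52 FPKM, stayed just outside. On the 0 h side, Cre03.g159250.t1.2, Cre13.g566750.t1.1 and Cre01.g034350.t1.2 were the members nearest to the ceiling, with 0.876, 0.761 and 0.759 FPKM in the strain where they were higher. Cre17.g739150.t1.1 (1.02 FPKM), Cre16.g665750.t1.1 (1.103 FPKM) and Cre06.g278550.t1.1 (1.12 FPKM) missed it narrowly. The list thus ends within a continuum, and 182 genes met a ceiling of 2 and a minimum of 5 FPKM.

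Among the members, timing differed between the strains. For the counts in this paragraph, shares over all genes were not counted, and whether other genes shift in the same way was not tested. In CC-4349, 20 of the 37 members were highest at 2 h and 8 at 48 h. In sta6, 7 were highest at 2 h, 8 at 4 h and 9 at 12 h. From 2 to 4 h, 32 members were lower in CC-4349 and 11 were lower in sta6, and 21 were lower in CC-4349 while higher in sta6. Most members otherwise held steady levels. The highest value from 2 to 48 h was less than 2 times the lowest in 21 members in CC-4349 and in 20 members in sta6.

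A sharp peak at 2 h in CC-4349 and at 4 h in sta6 marked 3 members, which were at least 2-fold lower at 4 h than at 2 h in CC-4349 and at least 2-fold higher in sta6. Of the 15108 genes that reached 1 FPKM in 3 or more first-set samples, 0.318% did so. Cre16.g691750.t1.1 measured 3.07, 287, 70.4, 39.1, 44.5, 126 and 55.5 FPKM from 0.5 to 48 h in CC-4349. Its sta6 levels were 0.0971, 29.9, 257, 75.6, 64.2, 65.4 and 48.0 FPKM at the same times. Peak heights were similar and peak times differed. In CC-4349 the gene was high again at 24 h, which sta6 did not show.

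Cre08.g360050.t1.2 had the same shape. It measured 13.6, 109, 31.3, 30.4, 35.2, 73.4 and 37.9 FPKM from 0.5 to 48 h in CC-4349, and 0.0689, 30.2, 149, 29.8, 29.3, 26.4 and 27.4 FPKM in sta6. Cre08.g360100.t1.1 measured 12.5, 82.6, 27.0, 20.9, 24.5, 52.5 and 23.6 FPKM in CC-4349, and 0.0449, 10.3, 63.4, 12.8, 13.4, 11.6 and 11.4 FPKM in sta6. Both genes thus had an early peak and a higher level at 24 h than at 12 or 48 h in CC-4349, and a single peak at 4 h in sta6. The runs of a sample kept this order: for Cre08.g360100.t1.1 they read 79.6 and 85.6 FPKM at 2 h against 30.1 and 23.9 at 4 h in CC-4349, and 9.79 and 10.8 against 60.4 and 66.3 in sta6. Cre12.g551350.t1.1 shared the sta6 peak at 4 h, with 59.2, 297, 215, 199, 99.1 and 75.4 FPKM from 2 to 48 h. In CC-4349 it stayed high, with 349, 192, 262, 299, 327 and 241 FPKM, and its CC-4349 runs at 4 h were far apart, at 107 and 277 FPKM.

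Other members reached their highest level later. Cre04.g217350.t1.1 measured 2.12, 15.1, 69.4, 201, 187, 153 and 112 FPKM from 0.5 to 48 h in CC-4349, the widest span of the list in that strain. In sta6 it was ahead at 0.5 and 2 h and behind from 4 h, with 15.5, 36.9, 59.4, 96.2, 113, 105 and 82.8 FPKM. Cre12.g557750.t1.2 was higher late than early in both strains, at 20.2 FPKM at 2 h and 47.4 at 48 h in CC-4349 and at 13.3 and 38.4 in sta6. Cre01.g058800.t1.1 was the reverse, at 59.7 FPKM at 2 h and 16.8 at 48 h in CC-4349 and at 55.8 and 13.8 in sta6. Levels at 48 h at least 2 times those at 2 h were seen in 2 members in CC-4349 and 5 in sta6. The reverse, 2 h levels at least 2 times those at 48 h, was seen in 9 and 5 members. Shares over all genes were not counted for these either.

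**Figure D2:**
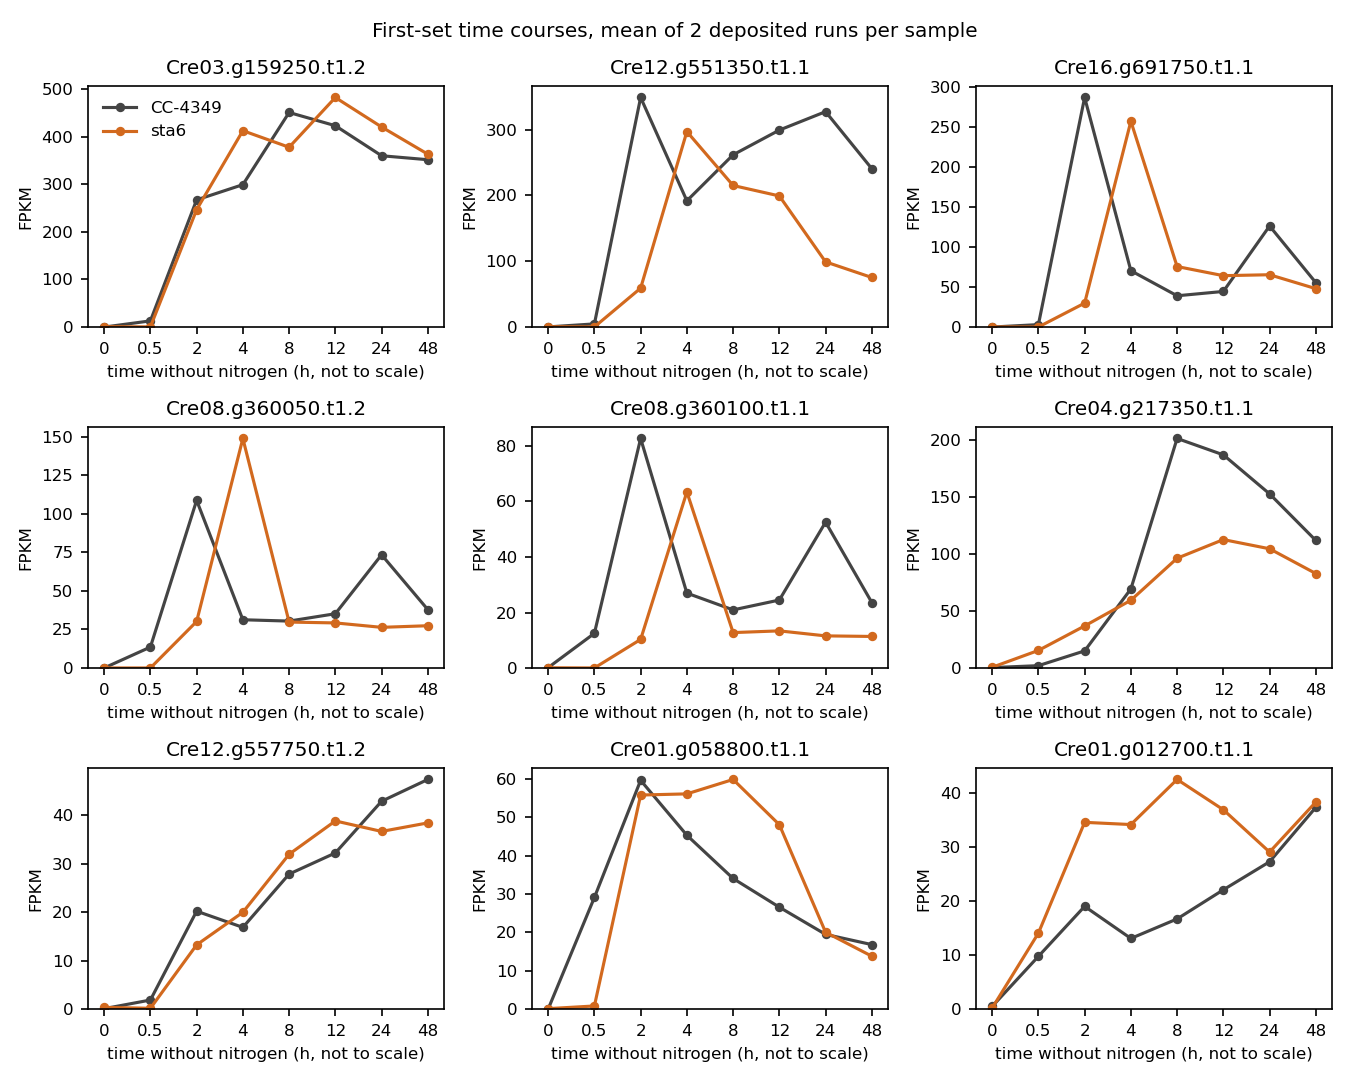
First-set FPKM (linear axis from 0) of 9 members against hours without nitrogen (categories, not to scale), with 1 point per sample, the mean of 2 runs, for CC-4349 and sta6. Cre16.g691750.t1.1, Cre08.g360050.t1.2 and Cre08.g360100.t1.1 peak at 2 h in CC-4349 and at 4 h in sta6, whereas Cre03.g159250.t1.2 and Cre12.g557750.t1.2 have similar courses in both strains.

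At 0.5 h, a time the selection did not use, the strains of the first set were far apart. In CC-4349, 24 of the 37 members already measured at least 10 FPKM (41.4% of all 15108 genes did) and none was under 1 FPKM. In sta6, 4 members were at 10 FPKM or more, where 37.5% of all genes were, and 17 were still under 1 FPKM. The 4 were Cre01.g012700.t1.1, Cre01.g072150.t1.1, Cre04.g217350.t1.1 and Cre06.g259000.t1.1. The highest at 0.5 h, over both strains, were Cre09.g410750.t1.1 (81.5 FPKM in CC-4349 and 3.23 in sta6), Cre01.g072150.t1.1 (37.1 and 10.6), Cre13.g581700.t1.2 (40.3 and 0.550), Cre06.g281250.t1.1 (31.3 and 7.07) and Cre01.g009400.t1.1 (36.8 and 0.0796). Levels in sta6 were under 0.5 times those in CC-4349 for 33 members, against 33.5% of all genes, and over 2 times for 1 member, Cre04.g217350.t1.1, against 15.3%. The selection kept only genes under 1 FPKM at 0 h in both strains, while all genes include those already expressed at 0 h. The shares are therefore not on an equal footing at 0.5 h, and nothing particular to the members is read from them.

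The first-set sta6 library at 0.5 h lay near its own 0 h library across the table. With 1 FPKM added to each value, 18.2% of genes differed by more than 2-fold from 0 h in it, and 43.2% did in CC-4349. Among the members these counts were 20 and 37, measured from 0 h values that the selection had set low, so they are not compared with the shares. The second set gave another sta6 sample at 0.5 h, and in it the members were higher. The ratio of the first-set to the second-set sta6 level at 0.5 h had a median of 0.134 and ranged from 0.00547 to 0.754, and it was under 0.5 for 33 members. The same ratio in CC-4349 had a median of 0.905 and ranged from 0.0753 to 25.04, over 2 for 11 members and under 0.5 for 11. Shares over all genes were not counted for these ratios, so whether the members differ in this from other genes was not tested. Cre01.g009400.t1.1, at 0.0796 FPKM in the first sta6 sample, was at 14.5 FPKM in the second. How much of the early gap between the strains belongs to that 1 library was not tested.

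**Figure D3:**
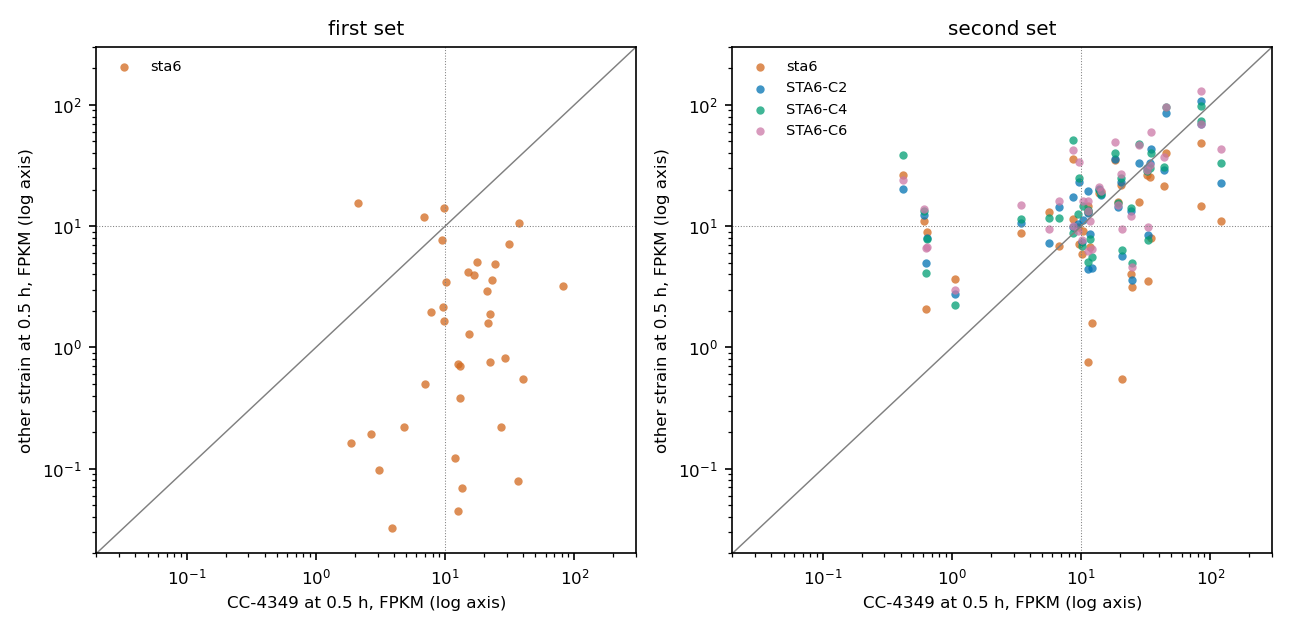
FPKM of each member at 0.5 h in sta6 or an STA6 strain (vertical, log axis) against CC-4349 of the same set (horizontal, log axis), first set on the left and second set on the right, with 1 point per gene and strain. Dotted lines mark 10 FPKM and the diagonal marks equal levels. Of the 37 first-set points, 33 lie below 0.5 times CC-4349, whereas the second-set points spread around the diagonal.

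From 2 h on, the first set gave smaller strain differences than at 0.5 h. The selection used these values and set a minimum in both strains. Shares over all genes were not counted at the single times, so nothing particular to the members is read from the counts. At 2 h, 29 members were lower in sta6 than in CC-4349 and 10 were lower by more than 2-fold. At 12 h no member differed by more than 2-fold in either direction. At 24 and 48 h, 6 and 3 members were more than 2-fold lower in sta6 and none was higher by as much. At 4 h, 5 members were more than 2-fold higher in sta6: Cre01.g009400.t1.1, Cre01.g012700.t1.1, Cre08.g360050.t1.2, Cre08.g360100.t1.1 and Cre16.g691750.t1.1.

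Lower in sta6 at all 6 times were 6 members, namely Cre02.g108550.t1.2, Cre12.g537900.t1.2, Cre12.g545050.t1.2, Cre14.g623950.t1.1, Cre17.g714450.t1.1 and Cre18.g750500.t1.2. Of all 15108 genes, 42.5% were. Cre01.g012700.t1.1 and Cre06.g258500.t1.2 were higher in sta6 at all 6 times, which 10.6% of all genes were. Because the selection used these values, nothing is read from the shares. The mean log2 difference of sta6 from CC-4349 over the 6 times was highest for Cre01.g012700.t1.1, at 0.74 ± 0.59 (SD over 6 times), then Cre06.g258500.t1.2 at 0.43 ± 0.17, Cre04.g216200.t1.1 at 0.31 ± 0.52 and Cre06.g259000.t1.1 at 0.30 ± 0.49. It was lowest for Cre08.g360100.t1.1, at -1.10 ± 1.44, then Cre02.g108550.t1.2 at -1.09 ± 0.62, Cre12.g551350.t1.1 at -1.03 ± 1.16 and Cre10.g448400.t1.2 at -0.80 ± 0.53. The spread over time exceeded the mean for 4 of these 8, including Cre08.g360100.t1.1 and Cre12.g551350.t1.1.

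Some members lay side by side. A locus tag of the Chlamydomonas_reinhardtii_v5.5 reference matched 30 members, and 5 of them had another member as their direct neighbour in its gene order. Cre08.g360050.t1.2 and Cre08.g360100.t1.1, which share the shifted peak, were neighbours. Cre09.g410850.t1.1, Cre09.g410900.t1.1 and Cre09.g410950.t1.1 followed each other, and Cre09.g410750.t1.1 came before them with 1 gene in between, Cre09.g410800.t1.1, which is no member. In CC-4349 that gene was listed at 0 at the start and measured 0.0810 FPKM at 2 h and 0.0745 at 48 h, and it was at most 0.186 FPKM in sta6 at those times. The 4 members around it measured 224, 76.5, 78.0 and 38.9 FPKM, in the order of the genes, in CC-4349 at 2 h. In sta6 at 2 h they measured 136, 79.3, 27.5 and 23.5 FPKM. Each of the 4 was highest at 2 h in CC-4349, while in sta6 Cre09.g410750.t1.1 and Cre09.g410850.t1.1 were highest at 2 h, Cre09.g410900.t1.1 at 8 h and Cre09.g410950.t1.1 at 12 h. Whether reads were shared between neighbouring genes of similar sequence could not be read from the table.

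The second set showed which of these genes were also on in libraries that the selection did not use. At both 4 and 48 h, 26 of the 37 members measured at least 10 FPKM in CC-4349, 31 in sta6, and 32, 33 and 32 in the STA6 strains C2, C4 and C6. The shares of all 14982 tested genes were 33.9%, 31.6%, 32.0%, 33.1% and 33.0%. In all 5 strains 22 members did so (26.0% of all genes), and in sta6 and the 3 STA6 strains 28 did (28.3%). The selection had required at least 10 FPKM at 4 and 48 h in CC-4349 and sta6 of the first set. The gap to the shares of all genes thus comes in part with the selection. At 0.5 h, 25 members were at 10 FPKM or more in CC-4349 (37.5%), 20 in sta6 (40.8%) and 25, 26 and 25 in the STA6 strains (41.1%, 39.8% and 40.3%). There was no 0 h sample in the second set, so the rise itself could not be looked at there.

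Time was tested in the second set with the 5 strains standing as the replicates of a time. No label ties the samples of a strain to separate cultures, so p-values measure only how far these samples spread, which may be technical in part. All fold changes are fitted log2 changes of FPKM + 1, which understates the change of low genes. At 4 h, 17 members were higher than at 0.5 h and 3 were lower, at a limma adjusted p below 0.05, where 12.7% and 9.73% of all tested genes were. The count of 17 depended on the strains: it was 11 without sta6, 10 without STA6-C2 and 9 without STA6-C4. The median change of the members was 0.54 and that of all tested genes 0.03.

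Cre16.g691750.t1.1 had the largest change from 0.5 to 4 h. It measured 20.8 FPKM in CC-4349, 0.547 in sta6, and 5.71, 6.31 and 9.38 in STA6-C2, STA6-C4 and STA6-C6 at 0.5 h, and 63.0, 112, 93.3, 245 and 148 FPKM at 4 h. Every strain was higher at 4 h than any was at 0.5 h, with a log2 change of 4.09 ± 0.57 (SE; limma adjusted p = 0.000614). Cre12.g551350.t1.1 lay between 4.02 and 24.4 FPKM at 0.5 h and between 103 and 367 FPKM at 4 h (3.98 ± 0.24, limma adjusted p = 1.35e-05). Cre03.g159250.t1.2 measured 9.65, 7.19, 23.1, 24.8 and 34.1 FPKM at 0.5 h in CC-4349, sta6, STA6-C2, STA6-C4 and STA6-C6, and 78.4, 277, 180, 306 and 235 FPKM at 4 h (3.44 ± 0.28, limma adjusted p = 3.93e-05). These were also among the highest members in the first set.

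The 3 lower members were already well expressed at 0.5 h. Cre01.g072150.t1.1 lay between 48.8 and 84.1 FPKM at 0.5 h and between 30.04 and 48.4 FPKM at 4 h, the lowest early value above the highest later one (-0.96 ± 0.13, limma adjusted p = 0.000458). Cre12.g545050.t1.2 changed by -0.91 ± 0.17 (limma adjusted p = 0.00318). Cre12.g500200.t1.2 changed by -0.54 ± 0.15 (limma adjusted p = 0.0228), a call that was lost without any 1 of STA6-C2, STA6-C4 or STA6-C6 (limma adjusted p of 0.138, 0.0800 and 0.0917).

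At 48 h, 23 members were higher than at 0.5 h and 4 lower, where 29.3% and 32.2% of all tested genes were. The median change was 1.01 in the members and -0.02 over all tested genes. The largest change was that of Cre03.g159250.t1.2, which at 48 h measured 263 FPKM in CC-4349, 372 in sta6, and 612, 540 and 737 in STA6-C2, STA6-C4 and STA6-C6 (4.72 ± 0.28, limma adjusted p = 3.61e-07). Cre12.g551350.t1.1 (4.07 ± 0.24) and Cre16.g691750.t1.1 (3.72 ± 0.57) followed. In the run of neighbours, Cre09.g410900.t1.1 (1.38 ± 0.15) and Cre09.g410950.t1.1 (1.05 ± 0.15) passed, while the log2 change was -0.06 ± 0.21 in Cre09.g410750.t1.1 and -0.13 ± 0.18 in Cre09.g410850.t1.1. The lower ones were Cre01.g072150.t1.1 at -1.07 ± 0.13, Cre01.g058800.t1.1 at -0.77 ± 0.30, Cre09.g400750.t1.1 at -0.50 ± 0.16 and Cre06.g259000.t1.1 at -0.42 ± 0.13. Without STA6-C2 the count lower was 2, and without STA6-C4 it was 1. The call of Cre01.g058800.t1.1 was lost without any 1 of the STA6 strains (limma adjusted p of 0.152 to 0.192), that of Cre09.g400750.t1.1 without STA6-C2 or STA6-C4, and that of Cre06.g259000.t1.1 without STA6-C4.

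Between 4 and 48 h, 14 members were higher and 2 lower, where 23.8% and 28.0% of all tested genes were. Cre12.g557750.t1.2 changed most. It measured 33.1 FPKM in CC-4349, 14.7 in sta6, and 8.10, 12.6 and 11.1 in STA6-C2, STA6-C4 and STA6-C6 at 4 h, and 54.4, 46.6, 45.9, 51.4 and 45.4 FPKM at 48 h (1.71 ± 0.29, limma adjusted p = 0.000526). The times did not overlap, and this gene was also late in the first set. Cre01.g034350.t1.2 (1.29 ± 0.22), Cre03.g159250.t1.2 (1.28 ± 0.28) and Cre13.g593650.t1.1 (1.05 ± 0.16) were next, with limma adjusted p of 0.000545, 0.00274 and 0.00023.

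Cre01.g058800.t1.1 had the most negative change of any member from 4 to 48 h. It lay between 46.3 and 61.2 FPKM at 4 h and between 13.6 and 36.7 FPKM at 48 h (-1.48 ± 0.30, limma adjusted p = 0.00164). Cre09.g410850.t1.1 changed by -0.48 ± 0.18 (limma adjusted p = 0.0464). That call was lost without sta6 or any 1 of the STA6 strains, which leaves 1 lower member. Cre09.g400750.t1.1 (-0.40 ± 0.16) and Cre16.g691750.t1.1 (-0.37 ± 0.57) did not pass, with limma adjusted p of 0.0514 and 0.605. With CC-4349 left out, 20 of the 20 calls from 0.5 to 4 h, 26 of the 27 from 0.5 to 48 h and 15 of the 16 from 4 to 48 h remained.

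**Figure D4:**
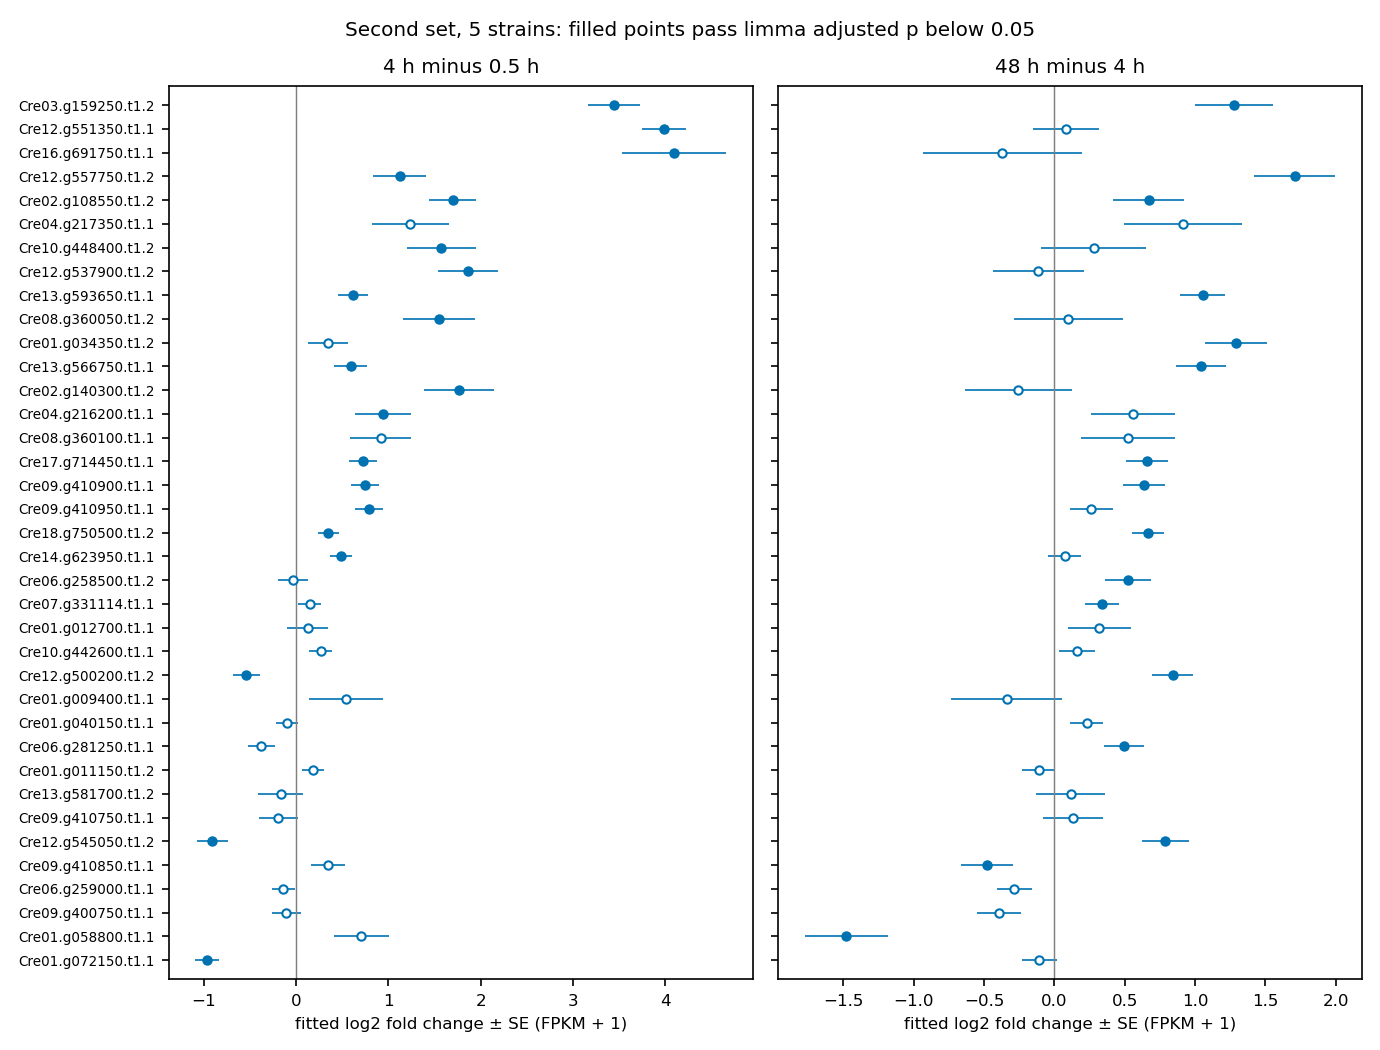
Fitted log2 fold change of FPKM + 1 with its standard error (horizontal) for each member (rows), 4 h minus 0.5 h on the left and 48 h minus 4 h on the right, over 5 strains of the second set. Filled points pass a limma adjusted p below 0.05: 17 higher and 3 lower on the left, 14 higher and 2 lower on the right.

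CC-4349 stood apart from the other strains for a group of members in the second set. It was under 10 FPKM at 4 or 48 h, with the other 4 strains at 10 or more at both times, in 6 members (2.35% of all tested genes): Cre02.g108550.t1.2, Cre04.g216200.t1.1, Cre04.g217350.t1.1, Cre09.g410950.t1.1, Cre13.g581700.t1.2 and Cre18.g750500.t1.2. In the first set each had been at 10 FPKM or more in CC-4349, as the selection required. The other 4 strains reached 10 FPKM at both times in 28 members, and these 6 were among them. Over all tested genes the same numbers were 4247 and 352. Part of the gap between the 6 of 37 members and the 2.35% thus comes with the selection for well expressed genes. The ratio of the first-set to the second-set CC-4349 level at 4 h was 20.6 for Cre18.g750500.t1.2, 19.96 for Cre02.g108550.t1.2, 15.03 for Cre06.g258500.t1.2 and 12.1 for Cre04.g217350.t1.1. Over all members this ratio had a median of 1.77 and was above 2 for 17 members. In sta6 it had a median of 1.34 and was above 2 for 5. The selection set a minimum for the first-set level only, which raises this ratio in both strains. Shares over all genes were not counted, so nothing about the members is read from these counts.

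Cre18.g750500.t1.2 shows the contrast. It measured 0.604, 0.993 and 2.80 FPKM at 0.5, 4 and 48 h in second-set CC-4349, and 11.1, 16.4 and 19.1 FPKM in sta6. In STA6-C2 it measured 12.3, 16.9 and 27.4 FPKM, in STA6-C4 13.2, 14.6 and 25.9, and in STA6-C6 13.7, 17.6 and 30.1. The lowest value outside CC-4349 was above every CC-4349 value, whereas first-set CC-4349 had 15.1, 20.5 and 28.6 FPKM at the same times. The strain named CC-4349 therefore gave different levels of this gene in the 2 sets. The part in this of the difference in low values between the columns was not tested.

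Tested over the 3 times of the second set, sta6 was higher than CC-4349 in 10 members and lower in 6, at a limma adjusted p below 0.05, where 11.1% and 15.6% of all tested genes were. The STA6 strains were higher than CC-4349 in 14 members and lower in 4, where 16.1% and 16.3% were. Both contrasts share the CC-4349 samples. CC-4349 and sta6 were each 1 strain with 1 sample per time, so the 3 times of a strain stood as its replicates. The p-values of the strain contrasts thus measure how far these samples spread, not how far separate cultures of a strain would. Without the 4 h samples, sta6 was higher in 4 and lower in 3. Without those of 0.5 h it was lower in 1. The STA6 strains were lower in 2 members without STA6-C2 and in 1 without the samples of 0.5 h or of 4 h.

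The largest differences from CC-4349 were in Cre18.g750500.t1.2, at 2.81 ± 0.14 (log2, SE) in sta6 and 3.06 ± 0.11 in the STA6 strains, with limma adjusted p of 7.58e-09 and 2.04e-10. Cre04.g217350.t1.1 differed by 2.53 ± 0.51 and 2.83 ± 0.42 (limma adjusted p of 0.0027 and 0.000191), and the first of these was lost without the 4 h samples (limma adjusted p = 0.0717). Cre06.g258500.t1.2 differed by 2.48 ± 0.20 and 2.25 ± 0.16. It measured 0.643, 0.692 and 1.64 FPKM at 0.5, 4 and 48 h in CC-4349 and between 5.70 and 12.2 FPKM in every other second-set sample. Cre02.g108550.t1.2 differed by 2.05 ± 0.32 in sta6 and by 2.05 ± 0.26 in the STA6 strains. In the first set Cre02.g108550.t1.2 had been lower in sta6 than in CC-4349 at all 6 times, so its strain order was opposite in the 2 sets. Cre18.g750500.t1.2 had also been lower in sta6 at these times, but only slightly. Its first-set log2 difference was -0.49 at 2 h and -0.17, -0.25, -0.19, -7.2e-05 and -0.085 at the later times. No opposite strain order is read for it.

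Among the members lower in sta6 than in CC-4349, Cre12.g551350.t1.1 differed most, with 24.4, 367 and 412 FPKM in CC-4349 at 0.5, 4 and 48 h and 4.02, 175 and 162 FPKM in sta6 (-1.58 ± 0.36, limma adjusted p = 0.00588). The STA6 strains differed from CC-4349 by -1.003 ± 0.295 (limma adjusted p = 0.0195). Both calls were lost with 1 value per strain (limma adjusted p of 0.286 and 0.254) and without the 0.5 h samples (0.0928 and 0.0577), and the second also without STA6-C2 or the 48 h samples (limma adjusted p of 0.0613 and 0.0686). Cre12.g557750.t1.2 was 24.8 FPKM in CC-4349 at 0.5 h and between 3.15 and 4.95 FPKM in the other 4 strains. Its difference was -1.32 ± 0.36 in sta6 and -1.35 ± 0.29 in the STA6 strains, and both calls were lost without the samples of 0.5 h or of 4 h.

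**Figure D5:**
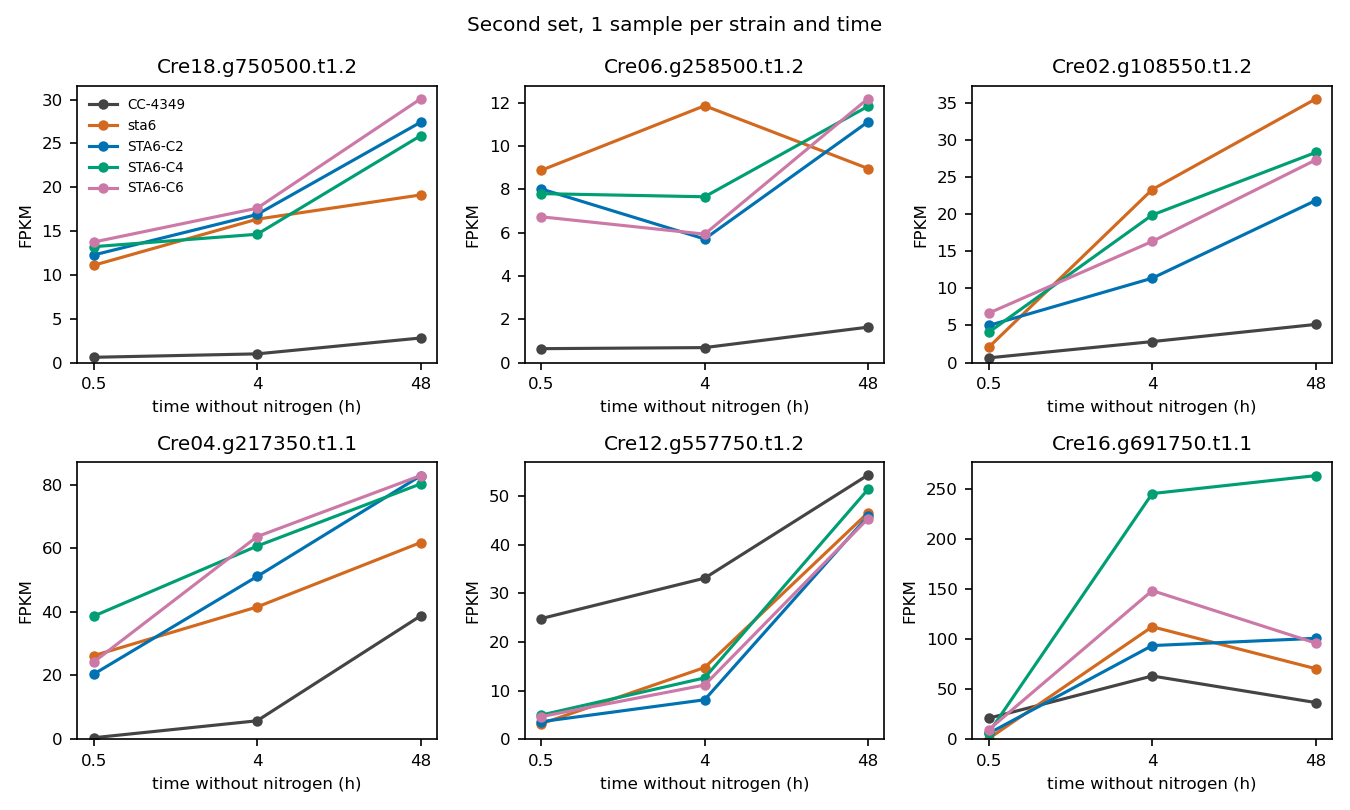
Second-set FPKM (linear axis from 0) of 6 members at 0.5, 4 and 48 h without nitrogen (categories, not to scale), with 1 point per strain and time and lines joining a strain. CC-4349 lies under the other strains at all 3 times in the first 4 panels and above them in Cre12.g557750.t1.2, and STA6-C4 is the highest at 4 and 48 h in Cre16.g691750.t1.1.

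No member differed between sta6 and the 3 STA6 strains over the 3 times at a limma adjusted p below 0.05, where sta6 was higher for 0.354% of all tested genes and lower for 0.387%. At an unadjusted p below 0.05 there were 6. The test averages over the 3 times, so differences that change direction between times can cancel in it. The fitted differences ran from -1.24 ± 0.60 (SE) in Cre16.g691750.t1.1 and -1.19 ± 0.39 in Cre01.g009400.t1.1 to 0.27 ± 0.17 in Cre17.g714450.t1.1, with limma adjusted p of 0.400, 0.212 and 0.544. Cre02.g140300.t1.2 (-0.81 ± 0.37) and Cre03.g159250.t1.2 (-0.76 ± 0.28) were the next most negative. The median was -0.22 in the members and -0.03 over all tested genes.

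The order of the strains depended on the time. At 0.5 h, sta6 was below all 3 STA6 strains in 26 members (33.2% of all tested genes) and above all 3 in 5 (40.7%). At 4 h it was below all 3 in 5 (27.9%) and above all 3 in 18 (34.7%). At 48 h it was below in 29 (55.0%) and above in 3 (17.7%). These orders rest on 1 sample per strain and time. CC-4349 was below all 4 other strains in 16, 20 and 21 members at 0.5, 4 and 48 h (43.2%, 40.1% and 22.8%), and above all 4 in 14, 8 and 6 (26.0%, 31.6% and 46.8%).

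The change from 0.5 to 48 h was tested directly between sta6 and the STA6 strains. With 1 sta6 sample per time, the spread in this test came from the 3 STA6 strains alone. It was larger in sta6 in 7 members and smaller in none, at a limma adjusted p below 0.05, where 3.63% and 7.28% of all tested genes were. The 7 were 3 without STA6-C6. The median of this difference was -0.18 over all tested genes as deposited and -0.02 after quantile normalization, and 0.13 and 0.31 in the members. Cre02.g140300.t1.2 differed most. In sta6 it measured 7.98 FPKM at 0.5 h and 78.4 at 48 h. In the STA6 strains it measured 43.6, 40.1 and 59.5 FPKM at 0.5 h and 109, 93.4 and 111 FPKM at 48 h, in the order C2, C4 and C6. The strains were thus apart at 0.5 h and near each other at 48 h, a difference of changes of 2.01 ± 0.30 (limma adjusted p = 0.00981).

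Cre01.g009400.t1.1 differed by 1.92 ± 0.33 (limma adjusted p = 0.0141). It measured 14.5 FPKM at 0.5 h and 51.3 at 48 h in sta6, while the STA6 strains lay between 97.1 and 130 FPKM at 0.5 h and between 91.2 and 107 FPKM at 48 h. In Cre01.g058800.t1.1 (1.82 ± 0.26, limma adjusted p = 0.00929), sta6 measured 15.9 and 19.97 FPKM, and the STA6 strains lay between 33.4 and 47.1 FPKM at 0.5 h and between 13.6 and 15.2 at 48 h. Cre12.g537900.t1.2 followed at 1.68 ± 0.25 (limma adjusted p = 0.00929), with 0.762 FPKM in sta6 at 0.5 h against 4.47 to 6.25 in the STA6 strains. Cre02.g108550.t1.2 (1.46 ± 0.41), Cre09.g410750.t1.1 (1.02 ± 0.19) and Cre13.g566750.t1.1 (0.88 ± 0.22) had limma adjusted p of 0.0489, 0.0153 and 0.0349. In all 7, sta6 was below each STA6 strain at 0.5 h. The calls of Cre01.g009400.t1.1, Cre02.g108550.t1.2, Cre09.g410750.t1.1 and Cre13.g566750.t1.1 were lost without STA6-C6, and those of Cre02.g108550.t1.2 and Cre13.g566750.t1.1 also without STA6-C2. That of Cre02.g108550.t1.2 was lost too with a pseudocount of 5, with no filter on low values and with limma without trend and robust fitting (limma adjusted p of 0.0744, 0.0652 and 0.0553).

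Among the STA6 strains, STA6-C4 was at least 1.5 times each of the other two at both 4 and 48 h in 3 members, where 0.581% of all tested genes were. They were Cre08.g360050.t1.2, Cre08.g360100.t1.1 and Cre16.g691750.t1.1. These 3 fell at least 2-fold from 2 to 4 h in first-set CC-4349 and rose at least 2-fold in first-set sta6. Other members, Cre01.g009400.t1.1 and Cre02.g140300.t1.2 among them, were also highest at 2 h in CC-4349 and at 4 h in sta6. In those, STA6-C4 did not exceed the other two in this way. Cre08.g360050.t1.2 measured 67.9 and 61.3 FPKM at 4 and 48 h in STA6-C4, 15.8 and 27.9 in STA6-C2, and 17.3 and 29.9 in STA6-C6. Cre08.g360100.t1.1 measured 23.9 and 38.9 FPKM in STA6-C4, 5.91 and 12.7 in STA6-C2, and 8.53 and 14.3 in STA6-C6. At 0.5 h these 3 strains were close, at 8.52, 7.73 and 9.77 FPKM for Cre08.g360050.t1.2 in C2, C4 and C6.

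Counted singly, STA6-C4 exceeded both others by that factor in 1, 4 and 4 members at 0.5, 4 and 48 h (2.14%, 2.98% and 2.58% of all tested genes). No member did so in STA6-C2 (2.68%, 1.60% and 1.78%) or in STA6-C6 (1.89%, 2.40% and 3.12%) at any of the 3 times. The gene at 0.5 h was Cre04.g217350.t1.1, and the fourth at 48 h was Cre10.g448400.t1.2. The fourth at 4 h was Cre12.g551350.t1.1, at 298 FPKM in STA6-C4, 176 in STA6-C2 and 103 in STA6-C6. In first-set sta6, 4 members rose at least 2-fold from 2 to 4 h, this gene and the 3 of the previous paragraph. In all, 8 members were highest at 4 h in first-set sta6. With 1 sample per strain and time, whether the higher STA6-C4 levels are a property of the strain or of its cultures cannot be told apart.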

How the data were processed

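Gene values were used as the authors deposited them, in 1 table of 17301 genes and 47 columns, and were taken as FPKM. The unit is not named in the file, and RPKM would look the same. Per the submitters' processing notes, Bowtie was used; the sources used here do not state its version, the build, the annotation or the counter. Paired first-set columns were averaged per sample. Second-set tests used limma 3.58.1 in R 4.3.3 on log2(FPKM + 1) with trend and robust fitting, for the 14982 genes that reached 1 FPKM in 3 or more libraries, all 37 members among them, with Benjamini-Hochberg adjustment over all genes and a threshold of 0.05. Time contrasts had strain as a factor, strain contrasts had time, and the difference of changes had strain class (CC-4349, sta6 or STA6 strains) by time. Other steps used Python 3.11.15, numpy 2.4.6 and pandas 2.3.3.

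Members and lists were chosen with earlier results of these data known. A rule on level, timing and strain difference named 26 members; the other 11 were named after their values were seen. Planned gene lists by symbol, promoter motifs and a check of the STA6 gene by name were not applied, since the IDs had no names and no sequences were used here. Locus tags matched 12666 of 17301 IDs (73.2%). On simulated data, the fit recovered 94% of genes changed by 1 (log2) from 0.5 to 4 h. It recovered 98% for sta6 against the STA6 strains and 49% for the difference of changes. Wrong calls made up 2.02%, 6.60% and 4.70% of the calls. The simulation drew independent normal noise around the mean of each gene, without strain or time effects, and changed only genes above the median level. These rates therefore do not cover low genes or samples of a strain that resemble each other.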

Additional observations from a re-analysis of the deposited data

Results flagged for a closer look

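In the second set, each member was looked at in the 5 strains at each time, 111 groups of 5 in all. A strain was set apart where its gap to the nearest other was more than 0.71 of the group's range. This held in 20 groups. The cut would pass about 1 in 20, or 5.55, for independent normal values of 1 kind. Here the 5 values came from different strains and the groups shared the same 15 samples, so that number is no measure of chance. The share over all genes was not counted, and no excess is read from the 20. The strain was CC-4349 in 14, STA6-C4 in 5 and sta6 in 1.

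CC-4349 was low at 0.5 h in Cre06.g258500.t1.2 (0.643 FPKM against 6.73 to 8.87), Cre18.g750500.t1.2 (0.604 against 11.1 to 13.7) and Cre13.g593650.t1.1 (11.3 against 12.8 to 13.4). It was low at 4 h in Cre18.g750500.t1.2 (0.993 FPKM). At 48 h it was low in Cre09.g410750.t1.1 (43.2 FPKM against 66.6 to 74.9), Cre13.g566750.t1.1 (26.4 against 36.1 to 39.2) and Cre13.g593650.t1.1 (21.2 against 47.8 to 54.2).

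CC-4349 was high at 0.5 h in Cre06.g259000.t1.1 (19.3 FPKM against 14.5 to 15.8), Cre08.g360050.t1.2 (32.7 against 3.51 to 9.77) and Cre12.g557750.t1.2 (24.8). At 4 h it was high in Cre01.g072150.t1.1 (48.4 FPKM against 30.04 to 33.2), Cre06.g259000.t1.1 (23.6 against 12.1 to 13.4) and Cre12.g557750.t1.2 (33.1 against 8.10 to 14.7), and at 48 h in Cre01.g058800.t1.1 (36.7 against 13.6 to 19.97).

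STA6-C4 was high in Cre08.g360100.t1.1 at 4 h (23.9 FPKM) and 48 h (38.9 FPKM), in Cre10.g448400.t1.2 at 48 h (192 against 106 to 123) and in Cre16.g691750.t1.1 at 48 h (263 against 36.5 to 101). It was low in Cre01.g040150.t1.1 at 48 h (22.4 FPKM against 25.9 to 26.9). In sta6, Cre01.g072150.t1.1 was low at 48 h (24.9 FPKM against 32.7 to 35.0).

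By the limma test of the difference, sta6 and the STA6 strains changed unequally from 0.5 to 48 h in Cre02.g140300.t1.2 (2.01), Cre01.g009400.t1.1 (1.92), Cre01.g058800.t1.1 (1.82), Cre12.g537900.t1.2 (1.68), Cre02.g108550.t1.2 (1.46), Cre09.g410750.t1.1 (1.02) and Cre13.g566750.t1.1 (0.88, all log2). No cause was tested for any of these values.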

How the results depend on the processing

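The number of genes selected moved with the thresholds: 182 with under 2 and at least 5 FPKM, 12 with under 0.5 and at least 20, 1 with 0.5 h also at 10 or more, 81 in CC-4349 alone, 72 in sta6 alone and 21 after quantile normalization, of which 20 were members. The first runs alone gave 31 genes (30 members) and the second runs 36 (34 members). In the second set, quantile normalization left 2 members lower from 0.5 to 48 h and 1 lower from 4 to 48 h, no filter left 1 lower from 4 to 48 h, and 1 value per strain gave 2 lower in sta6 than in the STA6 strains. The cause was not tested. Leaving out a strain or a time gave ranges of 9 to 19 members higher and 2 to 4 lower from 0.5 to 4 h, 21 to 24 higher and 1 to 4 lower from 0.5 to 48 h, and 10 to 16 higher and 1 to 2 lower from 4 to 48 h. They were 4 to 10 higher and 1 to 7 lower for sta6 against CC-4349, 12 to 15 higher and 1 to 4 lower for the STA6 strains against CC-4349, and 3 to 7 larger and 0 to 2 smaller for the difference of changes. Among alternatives chosen after seeing the data, each run alone and quantile normalization moved no first-set count of timing or strain order by more than 1.5 times, and without STA6-C4 sta6 was above both remaining STA6 strains at 4 h in 26 members. Of 43 tests named for single genes, 28 stayed on their side of the threshold under every alternative run, 14 lost a call at least once, and none reversed; the difference of sta6 from the STA6 strains in Cre01.g009400.t1.1 gained a call with 1 value per strain (limma adjusted p = 0.0349). No paired analysis by replicate number was possible because the labels give none; strain or time was a term in the fits. Unknown depth limits all values near 1 FPKM, and 1 sample per strain and time limits every order of strains.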
